A study of Mus musculus with 2 samples.

Results

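The genes described here encode the subunits of heterotrimeric G proteins and the regulators of G protein signalling (RGS) that act on them. They were taken by symbol: every gene named as a Gna, Gnb, Gng or Rgs family member with a protein-coding transcript, leaving out Rgs5, which stood at 45.2 and 47.9 TPM. This gave 55 of 55536 annotated genes, of which 21901 have a protein-coding transcript. There were 16 alpha, 5 beta, 12 gamma and 22 RGS genes, and the last count includes Rgs7bp and Rgs9bp, which bind and anchor RGS proteins.

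The RNA came from hippocampal tissue of B6CASTF1/J females, F1 hybrids between an inbred laboratory line and a wild-derived line, at 10 days of age, and the parental alleles were not told apart here. The tissue label speaks of a hippocampal layer and does not name it. The 2 libraries were biological replicates of 1 group, each a pool of 3 mice with 300 ng of input, so variation among the mice of a pool cannot be seen. No treatment, second age or second genotype was part of the series, and the question the data can answer is which members the tissue's RNA holds and how closely the pools match. The libraries were of total RNA, stranded and depleted of ribosomal RNA, with ERCC spike-in RNAs, and held 29858328 and 32275110 expected counts (estimated reads per gene). Levels are TPM, an abundance corrected for transcript length and depth, given for replicate 1 and then replicate 2 or as mean ± SD (n = 2). In bulk tissue, fewer cells of a type and less RNA per cell cannot be told apart.

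A G protein rests as a complex of a guanine nucleotide-binding alpha subunit with a tightly joined beta and gamma pair. An activated receptor makes the alpha subunit exchange GDP for GTP, after which alpha and the beta-gamma pair act on enzymes and ion channels, and RGS proteins end the signal by speeding GTP hydrolysis. In hippocampal neurons Gs raises cyclic AMP, Gi/o lowers it and opens potassium channels through beta-gamma, Gq/11 drives phospholipase C and G12/13 acts on the actin cytoskeleton.

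The ends of the gamma coding sequences are shown because they carry the lipid site that holds beta-gamma at the membrane. Each line gives the last 10 codons and the stop codon of the leading transcript with a complete coding sequence, 5′ to 3′, for the 9 gamma genes detected, and capitals mark the last 4 codons, the CAAX box.
Gng2: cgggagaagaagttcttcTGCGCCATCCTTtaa
Gng3: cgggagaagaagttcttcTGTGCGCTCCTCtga
Gng7: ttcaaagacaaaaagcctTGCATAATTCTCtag
Gng10: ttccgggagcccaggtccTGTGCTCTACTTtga
Gng4: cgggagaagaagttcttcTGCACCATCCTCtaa
Gng12: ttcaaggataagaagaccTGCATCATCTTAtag
Gng13: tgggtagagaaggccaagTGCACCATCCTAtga
Gng5: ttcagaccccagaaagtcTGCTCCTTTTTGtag
Gng11: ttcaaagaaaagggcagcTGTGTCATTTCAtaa
In mm10 these lie, in the same order, at chr14:19875807-19875839 (minus strand), chr19:8838143-8838175 (minus), chr10:80951621-80951653 (minus), chr4:59039320-59039352 (plus), chr13:13825343-13825375 (plus), chr6:67017557-67017589 (plus), chr17:25719000-25719032 (plus), chr3:146503353-146503385 (plus) and chr6:4008128-4008160 (plus). Every one of the 9 has a cysteine codon at the start of the box. The last codon, known to select the lipid, codes leucine, the geranylgeranyl type, in 8 genes and serine, the farnesyl type, in Gng11. The leucine genes held 98.95% and 98.98% of the gamma TPM, and Gng11 held 0.79% and 0.81%.

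The ends of the alpha coding sequences touch the receptor and are shown because pertussis toxin modifies a cysteine there. Capitals mark the codon 4 places before the stop.
Gnas: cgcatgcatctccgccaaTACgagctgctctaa
Gnao1-201: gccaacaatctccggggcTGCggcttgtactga
Gnao1-207: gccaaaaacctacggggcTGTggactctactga
Gnai2: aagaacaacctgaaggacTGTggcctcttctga
Gnai1: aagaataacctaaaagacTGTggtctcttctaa
Gnai3: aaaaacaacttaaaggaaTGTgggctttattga
Gnaz: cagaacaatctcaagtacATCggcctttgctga
Gnaq: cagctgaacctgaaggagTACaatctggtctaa
Gna11: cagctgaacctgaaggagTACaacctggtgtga
Gna12: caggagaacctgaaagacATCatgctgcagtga
Gna13: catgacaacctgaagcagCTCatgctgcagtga
In mm10 these are chr2:174346356-174346388 (plus strand), chr8:93967023-93967055 (plus), chr8:93956220-93956252 (plus), chr9:107615635-107615667 (minus), chr5:18267019-18267051 (minus), chr3:108109422-108109454 (minus), chr10:75015180-75015212 (plus), chr19:16383362-16383394 (plus), chr10:81530795-81530827 (minus), chr5:140760549-140760581 (minus) and chr11:109396454-109396486 (plus). The marked codon codes cysteine in Gnao1, Gnai1, Gnai2 and Gnai3. It codes isoleucine in Gnaz, which belongs to the Gi/o family and is known to resist the toxin. The 4 cysteine genes together held 35.3% and 30.8% of the alpha TPM.

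Most of the family was present. Of the 55 members, 41 reached a TPM of 1 in both libraries, 74.5%, against 59.2% of 22028 protein-coding genes. These were 12 of 16 alpha, 4 of 5 beta, 9 of 12 gamma and 16 of 22 RGS genes. By mean TPM, 7 members stood at 100 or more, 28 between 10 and 100, 6 between 1 and 10 and 14 below 1. The median member stood at 22.2 and the median protein-coding gene at 3.81. Summed over each class, alpha genes held 1762 and 1906 TPM, beta genes 899 and 864, gamma genes 596 and 575 and RGS genes 356 and 336.

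**Figure D1:**
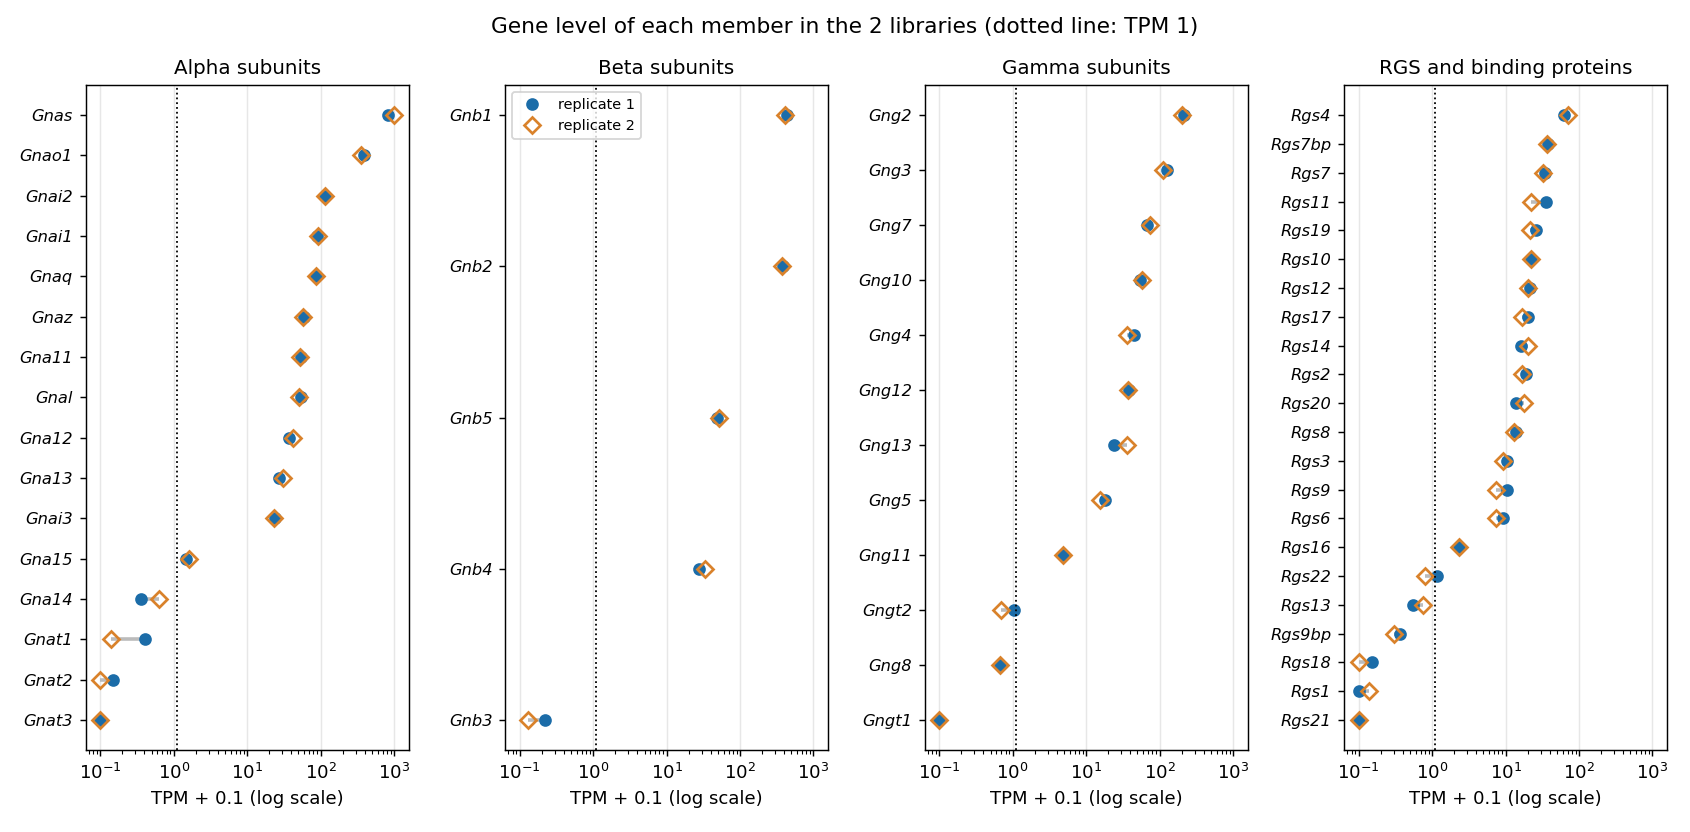
Each row is a gene, with its TPM plus 0.1 on a log scale in replicate 1 (filled circles) and replicate 2 (open diamonds), and the dotted line marks a TPM of 1. Gnas, Gnao1, Gnb1, Gnb2, Gng2, Gng3 and Gnai2 exceed a mean of 100, and the lowest rows include genes known from photoreceptors, taste cells and blood cells.

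Among the alpha subunits, Gnas, the stimulatory subunit that activates adenylyl cyclase (mm10 chromosome 2, 174284320 to 174346744), was the highest member of all, at 819 and 998. Both values lay above those of every other member. Its mean was 908 ± 126, or 49.4 ± 4.14% of the alpha TPM. Gnao1, the main inhibitory-class subunit of brain membranes (chromosome 8, 93809966 to 93969388), followed at 394 and 359, or 20.6 ± 2.52%.

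The other Gi subunits, which lower cyclic AMP, stood well below Gnao1. Gnai2 was at 115 and 113, Gnai1 at 88.2 and 91.8 and Gnai3 at 24.0 and 23.4. Gnaz, the toxin-resistant member, was at 60.2 and 57.4. The 4 genes kept one order in both libraries.

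Gnaq, which drives phospholipase C, stood at 85.8 and 85.2, and its close relative Gna11 at 54.4 and 53.0. Gnal, the Gs-class subunit known from olfactory neurons and striatum, stood at 54.7 and 51.1. The G12/13 subunits were lower, with Gna12 at 37.1 and 41.8 and Gna13 at 26.9 and 30.4. Striatal markers summed to 17.1 and 18.1 TPM over 4 genes, and their part in the Gnal level was not tested.

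Grouped by family, Gs held 52.3 ± 3.85% of the alpha TPM, Gi/o 36.3 ± 3.48%, Gq/11 7.70 ± 0.486% and G12/13 3.71 ± 0.114%. The Gs share was 49.6% and 55.0% in the libraries and the Gi/o share 38.7% and 33.8%, so the order of the families was the same in both. Without Gnas the Gi/o share was 71.7%. Of 11 neighbouring pairs in the order of alpha levels, 8 were separated, meaning that their log2 ratio kept its sign and its mean exceeded 2 SD. The pairs that were not were Gnai1 and Gnaq, Gna11 and Gnal, and Gna13 and Gnai3. With 2 libraries an exact sign-flip test cannot go below a p of 0.5, so these are descriptions.

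**Figure D2:**
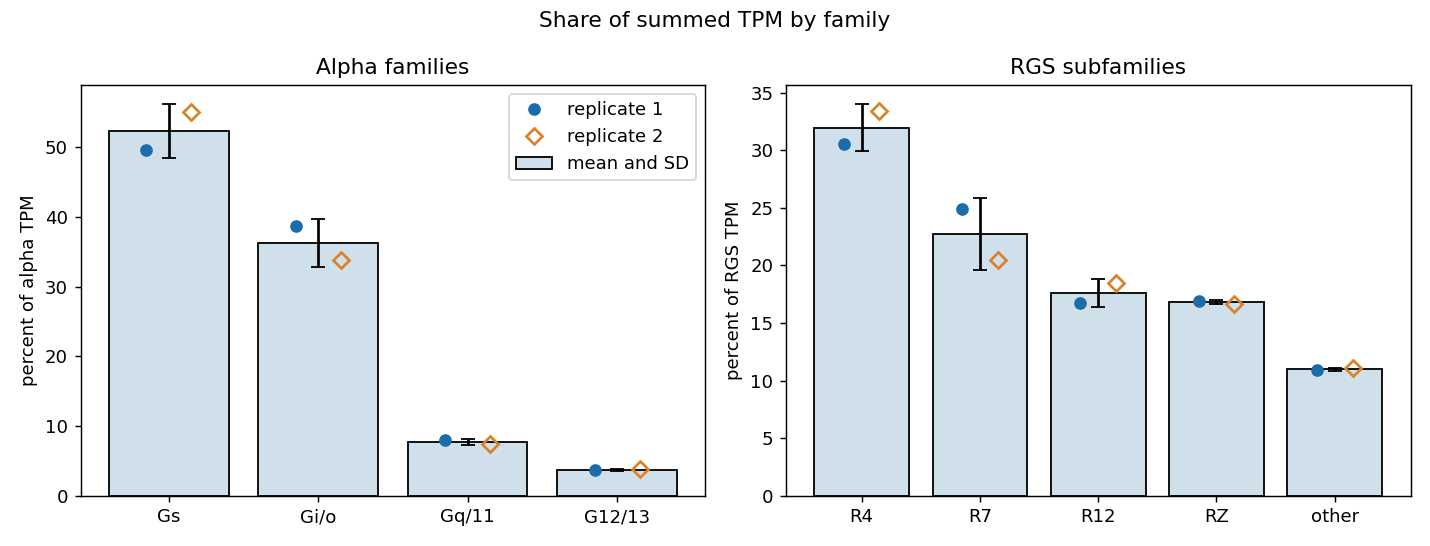
Bars show the mean percent of summed alpha TPM (left) and RGS TPM (right) in each family, with SD over the 2 libraries and a point for each library. Gs at 52.3% and Gi/o at 36.3% lead the alpha genes, while no RGS subfamily exceeds the 31.95% of R4.

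Among the beta subunits, Gnb1 and Gnb2 dominated at the gene level. Gnb1 (chromosome 4, 155491361 to 155559269) stood at 439.7 and 410.2 and Gnb2 (chromosome 5, 137528127 to 137533510) at 383 and 369. Together they held 90.9 ± 0.934% of the beta TPM. Gnb5, the divergent beta subunit that pairs with R7 RGS proteins, stood at 48.3 and 51.4, and Gnb4 at 27.8 and 33.2. Gnb3, known from cone photoreceptors and retinal bipolar cells, held 4 and 1 counts. All 3 neighbouring pairs of the 4 detected genes were separated.

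Gene-level TPM counts non-coding transcripts of a gene too, and this matters for beta subunits, for Gnas and for some other members. In protein-coding transcripts alone Gnb1 stood at 405 and 383 and Gnb2 at 185 and 177, a ratio of 2.19 and 2.16. The read-based table, the second quantification deposited, gave 2.13 and 2.27. Gnb4 in coding transcripts stood at 6.36 and 7.96 in the alignment-based table and at 24.5 and 26.5 in the read-based one, so its coding level is uncertain. For coding transcripts the ratio of Gnas to Gnao1 was 2.45 and 2.75 in the alignment-based table and 1.59 and 1.78 in the read-based one. In coding transcripts Gnaz stood at 39.6 and 34.9, below Gna11 at 50.8 and 51.3, the reverse of their gene-level order. The alpha family shares and separated pairs above count all transcripts.

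Gamma subunits were spread over more genes. Gng2 (chromosome 14, 19872559 to 19977627), common across the brain, stood at 215 and 201 and held 35.5 ± 0.749% of the gamma TPM. Gng3, a neuronal gamma subunit, stood at 127 and 112. Gng7, known for its partnership with Gnal in striatum, stood at 68.2 and 74.7. These 3 were separated from each other and from the next gene. In the read-based table Gng3 and Gng7 were not separated, with Gng3 at 149.6 and 141 and Gng7 at 140.0 and 191.

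Gng10, widely expressed, stood at 53.98 and 57.3, and Gng4, a brain gamma subunit, at 44.3 and 35.9. Gng12, also found in glia, stood at 38.5 and 37.2, Gng13, known from taste and olfactory cells, at 24.2 and 35.4 and Gng5, widely expressed, at 17.99 and 15.6. None of the 4 neighbouring pairs among these 5 was separated, although Gng10 was the highest and Gng5 the lowest of them in both libraries. In coding transcripts Gng10 stood at 35.98 and 35.89, below Gng12, in the alignment-based table. It stood at 76.9 and 88.5 in the read-based one. Gng11 stood at 4.72 and 4.68. Reads of Gng10 are partly shared, as its expected counts are not whole (1178.41 and 1365.78, tolerance 0.005), and its exons overlap Gm20503 on the same strand.

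RGS genes had no dominant member. Rgs4 (chromosome 1, 169741477 to 169747642), an R4 protein acting on Gi/o and Gq, led at 63.2 and 70.5, or 19.3 ± 2.28% of the RGS TPM. Rgs7bp, the membrane anchor of R7 complexes, stood at 37.4 and 36.3 and Rgs7, an R7 protein, at 33.9 and 32.5. Rgs11, another R7 protein, stood at 35.5 and 21.8, and was the least alike between the libraries among the 12 highest RGS genes.

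Rgs19, of the RZ subfamily that acts on Gz and Gi, stood at 26.2 and 21.6, and its relatives Rgs17 and Rgs20 at 20.4 and 16.6 and at 13.9 and 17.9. The R12 genes Rgs10 and Rgs12 stood at 22.1 and 22.2 and at 21.3 and 19.96. Rgs14, an R12 protein known from CA2 pyramidal neurons, stood at 16.2 and 19.9. These levels overlap, and of 15 neighbouring RGS pairs 4 were separated.

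Rgs2, which prefers Gq, stood at 18.8 and 16.5, and Rgs8, an R4 protein, at 13.6 and 13.1. Rgs3, Rgs9 and Rgs6 stood between 7.24 and 10.5, and Rgs16 at 2.20 and 2.21. By subfamily, R4 held 31.95 ± 2.02% of the RGS TPM, R7 22.7 ± 3.15%, R12 17.6 ± 1.20%, RZ 16.8 ± 0.199% and the rest 10.96 ± 0.127%. The R7 share was 24.9% and 20.5%, with Rgs11 and Rgs9 both lower in replicate 2. These shares count all transcripts. In coding transcripts Rgs11 stood at only 1.63 and 1.30 TPM, so the rank of R7 above R12 and RZ does not hold for coding transcripts.

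The 14 members below detection are mostly known from other tissues. Gnat3, of taste cells, Rgs21, also of taste cells, and Gngt1, of rods, held 0 counts in both libraries, and a count of 0 allows up to 3. Rgs1 and Rgs18, of blood cells, held 0 and 1 and 2 and 0 counts. Rgs13, of B cells and mast cells, stood at 0.45 and 0.65 TPM, and Rgs9bp, the retinal anchor of Rgs9, at 0.27 and 0.20. Gngt2 of cones stood at 0.94 and 0.59, Gng8 of olfactory neurons at 0.58 and 0.57 and Rgs22 at 1.08 and 0.71. Markers of these tissues were low as well: the photoreceptor marker Crx was listed at 0, 3 taste and tuft markers summed to 1.66 and 1.31 TPM and 4 B and T cell markers to 1.29 and 1.12.

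Alpha genes that are near neighbours differed widely. In 5 textbook pairs of alpha genes, lying near each other on one chromosome, the broadly expressed gene exceeded its neighbour in both libraries by more than 2 SD. Gna11 stood at 54.4 and 53.0 and Gna15, a blood cell alpha subunit 4498 bases away, at 1.38 and 1.51. Their log2 ratio of TPM plus 0.1 was 5.12 ± 0.11, and in counts per effective length the ratio was 37.2, with an exact 95% interval of 30.7 to 45.4. Gnaq exceeded Gna14, at 0.26 and 0.53, by 217 times in counts per length (162 to 298) across 48298 bases.

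The transducins were lower still. Gnai2 and the rod gene Gnat1, at 0.31 and 0.04, are 39106 bases apart with Slc38a3 between them, and the ratio was 814 (455 to 1630). Gnai3 and the cone gene Gnat2 are 5847 bases apart, and Gnat2 held 1 count in all, giving 1170 (210 to 46200). Gnai1 and Gnat3 are farther apart, at 245300 bases. Gnai1 was at least 1642-fold higher than Gnat3, taking 3 counts over both libraries as the floor for Gnat3. These intervals cover counting error only.

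**Figure D3:**
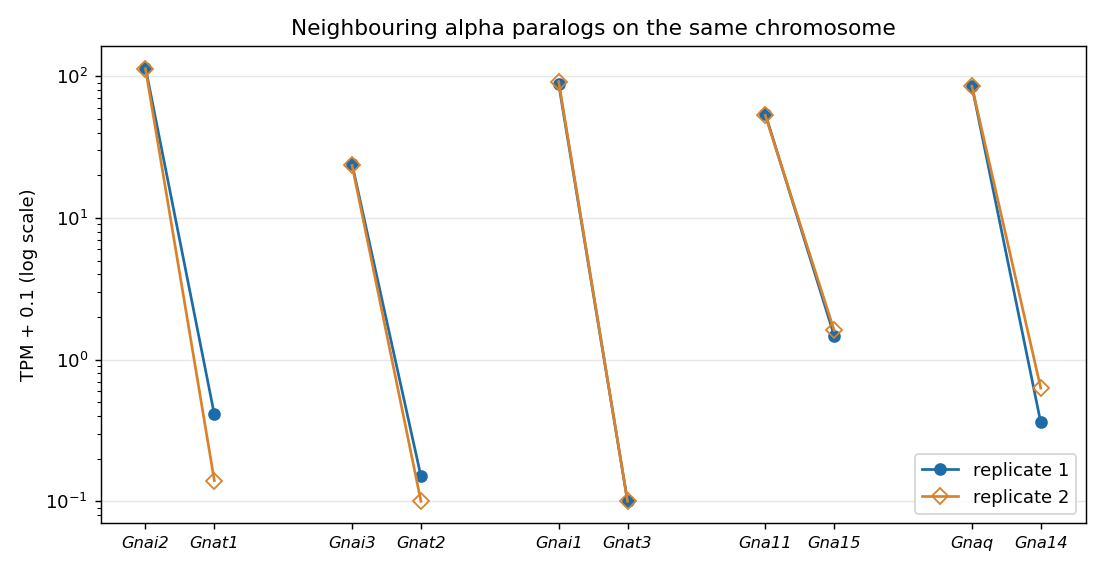
Lines join nearby alpha genes on one chromosome, with TPM plus 0.1 on a log scale for each library. In all 5 pairs the left gene, between 23.4 and 115 TPM, lies above the right gene, at 1.51 or less.

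R4 genes are also clustered. Of 9 R4 members, 8 lie on chromosome 1, and 5 of these, Rgs2, Rgs13, Rgs1, Rgs21 and Rgs18, fill a run of 776 kb (143999338 to 144775435) with no other coding gene. Rgs2 alone reached a TPM of 1 there. The other 4 stood at 0.65 or below.

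The promoters of one pair are shown to set their base composition side by side, as the 250 bases before the RefSeq start (GRCm38.p6), 5′ to 3′, with each CG in capitals.
Gna11: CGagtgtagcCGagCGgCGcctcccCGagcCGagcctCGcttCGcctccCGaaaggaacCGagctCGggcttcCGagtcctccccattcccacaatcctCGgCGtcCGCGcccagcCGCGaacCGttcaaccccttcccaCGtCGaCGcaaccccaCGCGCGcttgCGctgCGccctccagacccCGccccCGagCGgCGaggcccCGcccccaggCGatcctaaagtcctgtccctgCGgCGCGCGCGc
Gna15: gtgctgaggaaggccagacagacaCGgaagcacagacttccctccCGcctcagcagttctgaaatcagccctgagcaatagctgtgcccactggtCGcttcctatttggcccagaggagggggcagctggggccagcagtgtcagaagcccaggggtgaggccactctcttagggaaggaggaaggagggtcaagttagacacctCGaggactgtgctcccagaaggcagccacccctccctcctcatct
They lie at chr10:81545163-81545412 and chr10:81524226-81524475, both on the minus strand, and hold 38 and 4 CG. RefSeq windows from 250 before to 50 after the start were matched for 40 members, 33 of them detected. For members with several windows, the one nearest the leading transcript's start was taken. At least 10 CG stood in 24 of the 33, in 0 of the 7 not detected and in 43.9% of 27025 gene symbols. The symbols, detected or not, were each taken by their first listed window, which is a different rule. The median was 27 CG among the detected, 4 among the others and 7 over the 27025 symbols. The pair and the minimum of 10 were not set beforehand, and the windows of Rgs3, Rgs21 and Gnb5 lie far from the leading transcript's start (54367, 16103 and 7848 bases). This is a description of the windows and not of what acts on them.

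Splicing of the most abundant alpha gene was examined next. Gnas makes long and short forms of the subunit. A stretch of 45 bases, shown because the long forms hold it and the short forms do not, reads 5′ to 3′:
Gnas stretch: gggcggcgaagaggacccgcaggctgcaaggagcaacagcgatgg
It is at chr2:174336747-174336791 (plus strand), bases 213 to 257 of the Gnas-208 coding sequence, and is absent from Gnas-206 and Gnas-207. Gnas-206 has 1137 coding bases and Gnas-207 has 1140, of which 1137 are shared with the 1182 of Gnas-208. Most of the short form was Gnas-206 in the alignment-based table and Gnas-207 in the read-based one. Long transcripts (Gnas-202 and Gnas-208) held 492 and 612 TPM and short ones (Gnas-206 and Gnas-207) 197 and 141. The long form was 71.4% and 81.3% of their sum in the alignment-based table and 67.8% and 70.3% in the read-based one. The long form was therefore ahead in both libraries and both tables, while its size differed between them. Transcripts with other start codons, 9 in number, held 1.03 and 0.36 TPM. Nespas, an antisense gene, overlaps Gnas exons and stood at 3.21 and 2.26.

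Gnao1 has coding forms that differ at the end. Gnao1-201 and Gnao1-203 have the same coding sequence of 1062 bases, and Gnao1-207 matches it over the first 737 and differs at 88 bases after that, 7 of them within the end shown above. The first form held 246 and 236 TPM and the second 32.01 and 30.5. The first form was 88.5% and 88.5% of the sum in the alignment-based table and 88.1% and 87.95% in the read-based one. These shares differed by less than 1 point between libraries and tables.

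For other members the transcript picture depended on the table. Of 34 members with several transcripts at a mean TPM of 5 or more, 31 had the same leading transcript in both libraries. In 21, or 61.8%, the alignment-based and read-based tables named the same one, against 75.95% of 9577 genes. Gnas-208 held 58.6% and 59.7% of Gnas TPM in the alignment-based table and 35.6% and 33.3% in the read-based one. In the read-based table the non-coding Gnas-218 held 35.5% and 39.96%, and coding transcripts held 59.2% and 52.7% of Gnas. Gng7-202 held 48.5% of Gng7 in replicate 1 and 0.174% in replicate 2, though gene TPM moved from 68.2 to 74.7.

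Among the other members at 50 TPM or more, Gnai1 and Gng3 have a single transcript. Rgs4-201 held 98.9% and 100% of Rgs4, Gna11-201 93.4% and 96.8% of Gna11, and Gnaq-201 93.9% and 98.7% of Gnaq. Gnai2-201 held 66.7% and 71.4%, Gnaz-201 64.2% and 60.7%, Gnal-201 69.2% and 65.8%, Gng2-204 56.0% and 58.2% and Gng10-201 66.7% and 62.7% of their genes. Gnb1-201 held 37.7% and 38.9%, with 2 further Gnb1 transcripts of the same coding length.

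The leading transcript was a retained intron in 3 members. Rgs11-205 led Rgs11 with 22.1% and 21.7%, Gnb2-213 led Gnb2 with 31.3% and 32.2%, and Gnb4-207 led Gnb4 with 34.1% and 43.8%. Coding transcripts held 4.59% and 5.96% of Rgs11, 48.4% and 48.0% of Gnb2 and 22.9% and 23.9% of Gnb4. In the read-based table they held 9.10% and 2.47% of Rgs11, but 72.0% and 71.6% of Gnb2 and 60.4% and 65.3% of Gnb4. In coding transcripts Rgs11 stood at 1.63 and 1.30 TPM, the lowest of the 15 RGS genes at a mean of 5 or more. A coding share under 50% was found in 3 of 38 members at that mean, 7.89%, against 9.83% of 10384 protein-coding genes.

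**Figure D4:**
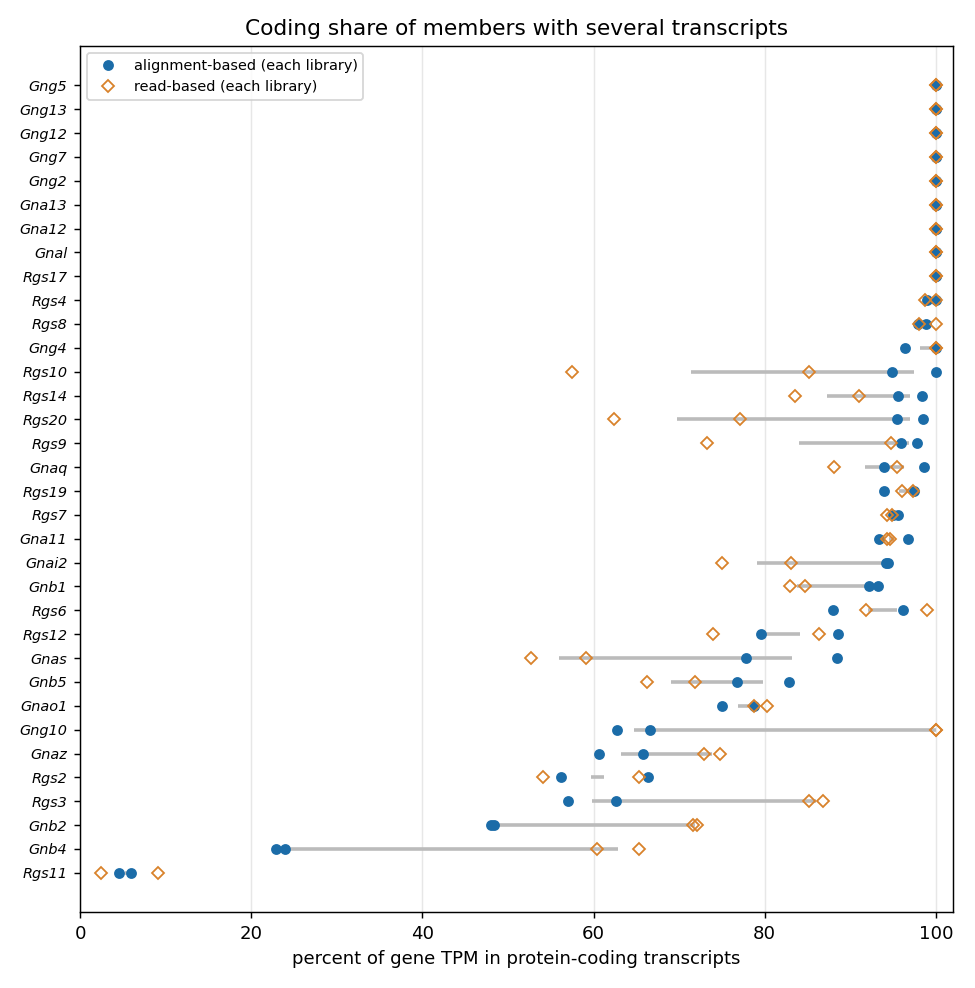
Percent of gene TPM in protein-coding transcripts for members with several transcripts, with each library as a point in the alignment-based (circles) and read-based (diamonds) tables and a line joining the table means. Rgs11 lies below 10% in both tables, while Gnb2, Gnb4, Gnas, Gng10, Rgs3, Rgs10 and Rgs20 move by more than 20 points between table means.

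Overlaps add to this uncertainty, because no source used here says whether counting took the strand into account. Exons of 19 members overlap another gene, 17 on the opposite strand. Rgs11 overlaps Arhgdig at 89.8 and 87.3 TPM, Rgs20 overlaps Atp6v1h at 82.5 and 84.9 and Gng3 overlaps Bscl2 at 50.6 and 51.1. The part of these neighbours in the members' levels was not tested.

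The pools were then compared with each other, 1 library against 1, so differences have no replicate check and speak of these libraries alone. Expected counts were scaled by TMM and tested with the exact conditional binomial test (two-sided), and 48 members had the 10 counts required. At a log2 ratio of 1 or more, 1 member, Gnat1, was called, 2.08% against 6.08% of all 20544 genes tested, and it rests on 9 and 2 counts. At 1.5-fold, 5 members were past the threshold, 10.4% against 15.5%. Gna14, Gng13 and Rgs13 were higher in replicate 2 (6.25% against 4.22%) and Gnat1 and Gngt2 in replicate 1 (4.17% against 11.2%).

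Of these 5 only Gng13 had 200 or more summed counts. Among protein-coding genes at that depth it was 1 of 39 members, 2.56% against 1.67% of 12084. Gng13 held 129 and 202 counts, a log2 ratio of 0.61 ± 0.16 (counting SE), with an adjusted p of 0.00103 by the exact test. It was 0.33 with ERCC scaling and 0.57 with upper quartile scaling, both short of 1.5-fold. The 39 members had a median absolute log2 ratio of 0.11, against 0.12 for the 12084 genes.

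Smaller differences exceeded counting error in more members. The exact test gave an adjusted p under 0.05 for 20 of 48 members, 41.7% against 27.1%. Of these, 15 were higher in replicate 2, against 15.7% of all genes, and 5 in replicate 1, against 11.5%. Among protein-coding genes with 200 or more counts the 20 calls were 51.3% of 39 members, against 36.1%. The 15 were 38.5% against 24.6% and the 5 were 12.8% against 11.5%. The direction depends on scaling. ERCC scaling, which moves the median of all genes to −0.29, gave 0 higher and 28 lower, and upper quartile scaling 11 and 10. Over all genes, 54.3% were called in either direction with ERCC scaling and 26.4% with upper quartile scaling.

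Of the alpha genes, 7 of the 14 tested were among the 15 and 0 among the 5. Gnas was higher in replicate 2 by a log2 ratio of 0.27 ± 0.01 (counting SE; adjusted p = 1.27e-106 by the exact test), but stood at −0.01 with ERCC scaling. In TPM, the retained-intron transcript Gnas-216 went from 58.4 to 177, while the coding transcripts of Gnas held 724 and 777. Rgs14 was higher in replicate 2 by 0.38 ± 0.07 (adjusted p = 3.81e-07, exact test). In the exact test 4 of 4 CA2 markers were higher in replicate 2, with a median of 0.38, against 15.7% of all genes. So were 3 of 4 glutamatergic markers, also with a median of 0.38 but with Neurod6 at 0.00. The part of both lists in these differences was not tested. In 16 of the 48 members TPM and scaled counts moved in opposite directions, and 5 of those, Gna11, Gnai2, Gnaq, Gng2 and Rgs12, were among the 20. For these 5 the direction is not settled by the tables.

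The 5 members higher in replicate 1 were Gng3, Gng4, Rgs11, Rgs17 and Rgs9. Rgs11 held 1133 and 802 counts, a log2 ratio of −0.53 ± 0.07 (adjusted p = 2.51e-14, exact test), while its opposite-strand neighbour Arhgdig held about the same TPM in both libraries. Rgs9 held 492 and 365 counts, −0.46 ± 0.10 (adjusted p = 3.26e-05, exact test), and Gng4 2816 and 2424, −0.25 ± 0.04. Rgs11 and Rgs9 were lower in replicate 2 also with ERCC, upper quartile, DESeq2 and read-based values. The other R7 genes, Rgs7 and Rgs6, had log2 ratios of 0.02 and 0.03 and were not called by the exact test. The 5 genes listed as thalamic markers summed to 90.6 and 77.4 TPM. Of this Prox1, which is not particular to thalamus, held 39.9 and 44.9, so the sum is not a thalamic level. In the exact test 3 of the 5 were lower in replicate 2 and 2 higher, against 11.5% and 15.7% of all genes. Slc17a6 had a log2 ratio of −0.83, Tcf7l2 −0.64 and Lef1 −0.50, while Prox1 stood at 0.32 and Rora at 0.18. Their part in the Rgs11 and Rgs9 values was not tested.

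**Figure D5:**
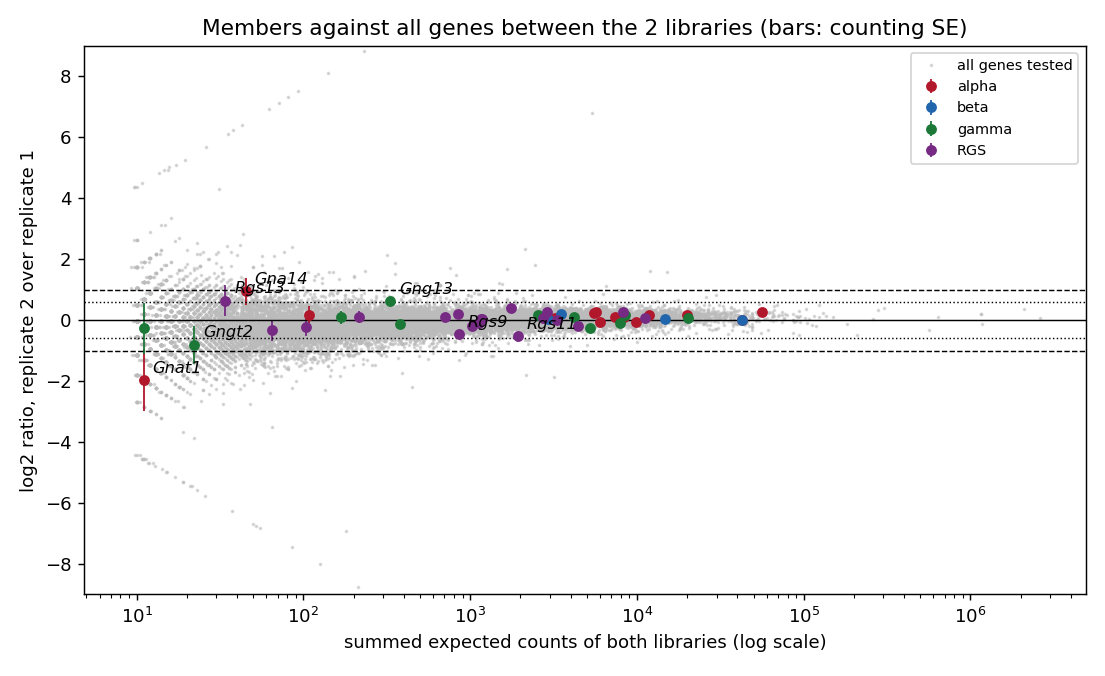
Log2 ratio of replicate 2 over replicate 1 against summed counts (log scale) for all genes tested (grey) and for members by class, with counting SE; dashed lines mark 2-fold and dotted lines 1.5-fold. Above 200 counts the members lie between −0.53 and 0.61.

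Other genes of the pathway were present too. Of 17 effectors, 16 were detected, led by the calcium-stimulated adenylyl cyclase Adcy1 at 91.3 and 79.9, the G12/13 effector Arhgef12 at 63.8 and 58.99 and the phospholipase Plcb1 at 43.9 and 45.6. In the exact test 8 were higher in replicate 2 and 5 in replicate 1, and 1 passed 1.5-fold. The shares over all genes, for this list and those that follow, are 15.7%, 11.5% and 15.5%. All 7 receptor kinases and arrestins were detected. Arrb1 stood at 84.1 and 83.8, the receptor kinase Grk2 at 64.3 and 67.3 and Arrb2 at 42.0 and 42.2, with 2 of the 7 higher in replicate 2 in the exact test and none past 1.5-fold. Of 15 chaperones and other regulators, 13 were detected. Rap1gap stood at 96.5 and 95.6, Gprin1, which binds activated Go, at 89.5 and 88.5 and the alpha-subunit chaperone Ric8a at 46.3 and 39.3. Among the 14 tested, 4 were higher in replicate 2 and 2 in replicate 1, with 1 and 2 past 1.5-fold.

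Markers of several cell types were present, and some differed between the pools. Myelinating oligodendrocyte markers summed to 126 and 354 TPM, with 8 of 8 higher in replicate 2 past 1.5-fold with TMM scaling, against 4.22% of all genes. Choroid plexus markers summed to 434 and 683, of which Ttr alone held 422 and 670.1, and 1 of the 4 passed 1.5-fold. Glutamatergic neuron markers summed to 1819 and 2207 with 4 of 4 detected, and astrocyte markers to 1042 and 1171. Neither list is particular to hippocampus, so they do not check the tissue label.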

How the data were processed

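The authors deposited, per library, a gene and a transcript table estimated from transcriptome alignments and a transcript table estimated from reads and an index. Build mm10 and annotation M21 are per the labels and deposited file lists; no source used here names the programs. Expected counts are, per the file headers, estimated reads with no normalization, rounded for tests. TPM is, per the file headers, a share of all entries, among them the spike-ins. FPKM was deposited by the authors too, per the file headers. Spike-ins took 0.341% and 0.393% of counts.

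Detection meant a TPM of 1 or more. Within-library ratios used TPM plus 0.1. Replicate 2 was compared with replicate 1 on counts plus 0.5, scaled by TMM (edgeR 4.0.16), over genes with 10 or more summed counts, with an exact two-sided conditional binomial test in scipy 1.17.1 and Benjamini-Hochberg adjustment. Calls were at a log2 ratio of 1, at 0.585 (1.5-fold) and at an adjusted p of 0.05. R 4.3.3, DESeq2 1.42.0 and Python 3.11.15 were used, and the comparison was tested on simulated data.

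TMM, upper quartile and DESeq2 factors were first taken from all genes. After those results were seen, factors were taken from genes with 10 or more counts, because the DESeq2 factors from all genes were both 1 in the alignment-based table. Both TMM versions are given in the closing section. Members, lists and tests were chosen with earlier results of these data known. Described genes were the 8 alpha, all beta, 8 gamma and 12 RGS genes of highest mean TPM, the linked pairs, members called between libraries, isoform members at 50 TPM or more and 3 pathway genes per group. Others, the sequences shown and the promoter and splice-form comparisons were chosen after values were seen. Sequences are from the GENCODE M21 transcripts and RefSeq promoter windows. A Gnal sequence is not used here. The summed level of photoreceptor markers is not reported here.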

Additional observations from a re-analysis of the deposited data

How the results depend on the processing

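Depth limits what can be said of the 14 members under a TPM of 1. Detection gave 41 members, and 38 to 44 under the other thresholds, the read-based table and either library alone. With the read-based table the class sums were 3348 for alpha, 1633 for beta, 799 for gamma and 581 for RGS TPM, and rescaled to protein-coding genes they were 3905, 1876, 1245 and 737. For family shares, the read-based table gave Gq/11 6.41%, G12/13 2.94%, R4 26.9%, R7 20.7%, R12 22.5%, RZ 20.2% and the other RGS genes 9.73%. R12 thus stood above R7 there. Without Gnas the alpha shares were Gs 5.71%, Gi/o 71.7%, Gq/11 15.2% and G12/13 7.37%. Without Rgs7bp and Rgs9bp the RGS shares were R4 35.8%, R12 19.7%, RZ 18.8% and other 0.288%. The 5 linked pairs were called under each alternative run.

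Between libraries, 1 member was called 2-fold, against 6.08% of all genes. Under other settings, with the share of all genes tested in brackets, it was 2 with ERCC scaling (9.53%), 5 with no minimum beyond 1 count (23.4%) and 0 with 200 or more counts (0.495%). At 1.5-fold there were 5 (15.5%). This became 9 with no minimum (33.6%), 1 with 200 or more counts (2.78%) and 3 with a pseudocount of 5 (11.6%). The 4 members added with no minimum have under 10 counts each. TMM factors from all genes, an alternative added after seeing the data and the setting first run, gave 1, 5 and 20 members by the 2-fold, 1.5-fold and exact rules, the same numbers as the filtered factors, against 6.02%, 15.4% and 27.4% of all genes. No paired analysis was possible because there is 1 group.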
